A study of Oryzias latipes with 5 samples.

Results

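The fibrillar collagens of bone and connective tissue, types I and V, were measured as messenger RNA in col10a1:nlGFP reporter cells of the medaka, Oryzias latipes, a small freshwater fish (strain Cab). Members were the genes whose symbol in the deposited table was col1a1, col1a2, col3a1, col5a1, col5a2 or col5a3, with or without a copy suffix, and 4 of 25689 genes qualified. These were col1a2, col1a1b, col5a2a and col5a1. Names of the form col3a1 and col5a3 matched 0 rows, and those chains were not analysed here. The mutant group was 2 libraries from fish heterozygous for a col10a1 mutation (col10a1wt/mut), and the other group was 3 libraries from wild-type siblings (col10a1wt/wt). Mutants and siblings alike carried the reporter on both chromosomes (col10a1:nlGFP+/+), and embryos were kept at 30 °C until 10 days post fertilization. The design text calls the libraries biological replicates, and the labels call the material chondrocytes and osteoblast progenitors. The reporter bears the name of the mutated gene, and no source used here gives the sorting of the cells or the number of fish behind a library. If libraries did not come from separate fish, p-values measure only the spread between these samples.

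Type I collagen is the main fibre-forming protein of bone, tendon and skin. Its triple helix joins alpha-1 and alpha-2 chains, and in zebrafish the col1a1b copy supplies a further type I chain that takes part in the same molecule. Type V collagen, built from the products of col5a1 and col5a2, is a minor partner that lies within type I fibrils, helps to start them and limits their thickness. In humans, changes in the type I genes cause brittle bone disease, and changes in the type V genes cause a form of Ehlers-Danlos syndrome. No member's own gene was altered in these fish: the mutated gene, col10a1, encodes the non-fibrillar type X collagen of hypertrophic cartilage. The comparison shows how transcripts of the main bone fibril chains stood in cells of the mutants.

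By FPKM, both mutant libraries stood below all 3 wild-type libraries in each of the 4 genes, and none of the 4 differences passed the test. Mean levels in the mutants were 70.0% of the wild-type mean for col1a2, 57.3% for col1a1b, 37.2% for col5a2a and 37.2% for col5a1. Mutant libraries lay below every wild-type library for 26.0% of the 13680 genes tested, so this order is common in these data, and 65.9% of tested genes had a negative difference, as all 4 members did. Each library pools cells, so fewer cells of a type and less RNA per cell cannot be told apart. By limma's adjusted p, 0 of 4 members passed, where 0.00731% of all tested genes, 1 gene, did. At an unadjusted p under 0.05, 3 of 4 were lower by limma, where 7.60% of all tested genes were, and 3 of 4 by voom, where 8.65% were. Values are FPKM, in which fragments are divided by gene length and library depth, and differences are mutant minus wild type on the log2(FPKM + 1) scale.

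Library facts bear on every value. Total reads recovered from the deposited FPKM ran from 24791662 to 28012092, and a gene of 1 kb with 3 reads would have 0.0871 to 0.120 FPKM, a limit that reflects counting error alone. The library of mutant 2 stood apart: it had reads on 12334 genes, where the other libraries had reads on 19397 to 21134. Of 5977 genes at 5 FPKM or more in the 4 other libraries, 374 had no read in it. The depth that its FPKM imply was 1.23 times its recovered reads, against 0.980 to 1.08 times in the other libraries. Its FPKM are thus lower for the same share of recovered reads. Over all tested genes the median log2 difference was -0.31, with -0.16 for mutant library 1 and -0.49 for mutant library 2 against the wild-type mean. Values without mutant library 2 are given below for each gene whose log2 difference is printed and moved by more than 1.5 times. All 4 collagen genes had reads in that library.

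The mutated gene is col10a1, and its transcript level cannot show whether the labels are right, for the reasons given below. Its copy col10a1a stood at 4055 and 4135 FPKM in mutant libraries 1 and 2, against 5384, 7272 and 6781 FPKM in wild-type libraries 1 to 3. The difference of col10a1a was -0.65 (SE 0.29, limma adjusted p = 0.399). The copy col10a1b stood at 301 and 580 FPKM in mutant libraries, against 374, 657 and 461 FPKM in wild-type libraries, so its groups overlapped (difference -0.21, SE 0.35, limma adjusted p = 0.746, and -0.68 without mutant library 2). Which col10a1 copy carries the mutation is not stated in the labels, and total transcript does not tell the alleles apart. Of the labelled cell types, osteoblast markers were abundant: sp7, the osteoblast transcription factor, stood at 212 and 251 FPKM in mutant libraries and at 193, 279 and 262 FPKM in wild-type libraries, so the genotypes overlapped. That list went both ways, with 6 lower and 4 higher estimates of 10 tested. Both mutants lay below all wild-type libraries for 3 and above them for 2 (phospho1 and entpd5b), where 26.0% and 8.33% of all tested genes did. phex, an endopeptidase relative of bone cells, stood at 72.2 and 77.6 FPKM in mutant libraries, against 102, 147 and 111 FPKM in wild-type libraries. alpl, alkaline phosphatase, stood at 9.61 and 0.0484 FPKM in mutant libraries, against 12.5, 14.2 and 13.5 FPKM in wild-type libraries (limma adjusted p = 0.399 for phex and for alpl). The difference of alpl was -2.11 with both mutants and -0.44 without mutant library 2, which held 8 reads of it. The 14 chondrocyte marker genes summed to 144 and 152 FPKM in mutant libraries, against 319, 399 and 346 FPKM in wild-type libraries. Of 12 tested all 12 had a lower estimate, where 65.9% of all tested genes did. No read was found for 4 of the 14 in mutant library 2, for 0 in mutant library 1 and for 1 in each wild-type library. Some markers of the gut, liver and pancreas were present in every library, with sums of 19711 to 60177 FPKM in mutant and 39221 to 46529 FPKM in wild-type libraries, mainly from apoa1b. Of the 11 genes of that list 4 had no read in mutant library 2 (ctrb1, cpb1, CEL and CPA1), and 0 lacked reads in any other library.

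col1a2 encodes the alpha-2 chain of type I collagen and was the most abundant of the 4 genes on average. It lies on chromosome 11 from 10345968 to 10366633 on the plus strand in the deposited coordinates, for which no source used here names a genome build. Its level was 281 and 309 FPKM in mutant libraries 1 and 2, against 342, 530 and 392 FPKM in wild-type libraries 1 to 3. In FPKM the groups did not overlap, but wild-type library 1 stood closer to mutant library 2 than to wild-type library 2. As a share of all recovered reads they did overlap: mutant library 2 (98438 of 27916294) stood above wild-type library 1 (82119 of 24791662). The FPKM rest on 65233 and 98438 reads in the mutants and on 82119, 143675 and 109873 reads in the wild type, so counting error is small beside the spread between libraries. The difference was -0.49 (SE 0.25, 95% interval -1.07 to 0.09, limma adjusted p = 0.399), and -0.31 without wild-type library 2. A two-sided exact permutation test over the 10 splits gave p = 0.2, where 0.1 is the smallest p that 2 against 3 libraries allow.

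col1a1b encodes an alpha-1-like chain of type I collagen, the one zebrafish studies name alpha-3. It lies on chromosome 19 from 15526298 to 15544237 on the minus strand. Its level was 249 and 229 FPKM in mutant libraries 1 and 2, against 320, 529 and 402 FPKM in wild-type libraries 1 to 3. Both mutants lay close together, at 239 ± 14.3 FPKM (SD, n = 2), while wild-type libraries spread over 417 ± 105 FPKM (SD, n = 3). The difference was -0.77 (SE 0.26, 95% interval -1.38 to -0.16, limma adjusted p = 0.399), and the exact permutation test gave p = 0.2. Of both type I members it had the larger estimate, but no test compared them.

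col5a2a encodes an alpha-2 chain of type V collagen and lies on chromosome 21 from 15585548 to 15597275 on the minus strand. Its level was 11.8 and 5.55 FPKM in mutant libraries 1 and 2, against 20.1, 25.1 and 24.9 FPKM in wild-type libraries 1 to 3. The wild-type libraries were the tightest of the 4 genes, with an SD of 12.2% of the mean, and even the higher mutant lay well below them. Read numbers were 828 and 534 in the mutants, against 1452, 2052 and 2110 in the wild type. The difference was -1.40 (SE 0.37, 95% interval -2.26 to -0.55, limma adjusted p = 0.399), and the exact permutation test gave p = 0.1. Of all tested genes 7.54% had an estimate at or below that of col5a2a. Without mutant library 2 the difference was -0.92 (limma adjusted p = 0.577), smaller but in the same direction.

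col5a1 encodes the alpha-1 chain, which most type V molecules need, and was the least abundant of the 4. It lies on chromosome 12 from 6023825 to 6060827 on the plus strand. Its level was 3.99 and 0.652 FPKM in mutant libraries 1 and 2, against 5.18, 7.21 and 6.35 FPKM in wild-type libraries 1 to 3. Mutant library 1 lay just under the lowest wild-type library, and the low group mean came mainly from mutant library 2. That library held 101 reads of the gene and mutant library 1 held 451, against 604, 951 and 867 in wild-type libraries. The difference was -1.33 (SE 0.56, 95% interval -2.63 to -0.02, limma adjusted p = 0.399), with an exact permutation p of 0.1. Without mutant library 2 it was -0.53 (limma adjusted p = 0.785), a smaller difference in the same direction.

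**Figure D1:**
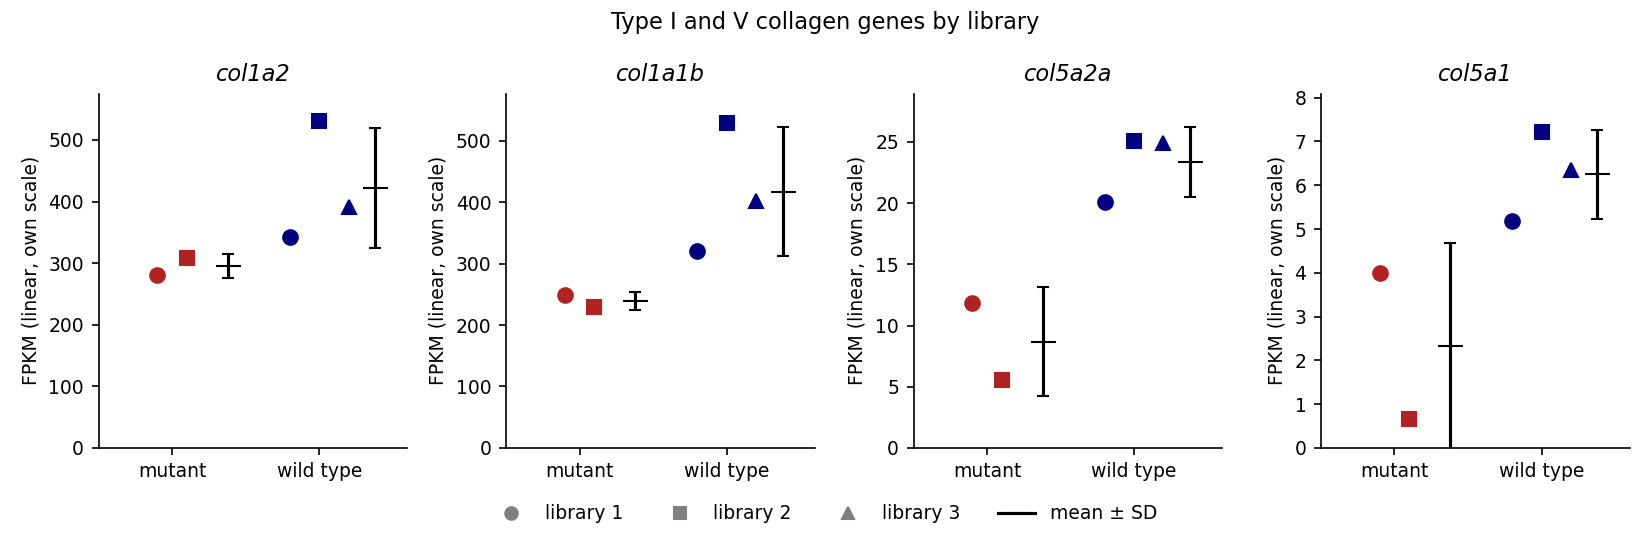
FPKM (vertical axes, linear, each gene on its own scale from 0) of col1a2, col1a1b, col5a2a and col5a1 in 2 mutant libraries (red) and 3 wild-type libraries (dark blue), with marker shape for the library number and a bar for the mean ± SD, which for col5a1 in mutants runs below 0 and is not drawn there. Both mutants lie under all wild-type libraries in each panel, and for col5a1 mutant library 2 is at 0.652 FPKM beside 3.99 FPKM in mutant library 1.

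Leaving out libraries changed which of these genes passed. With mutant library 1 left out, so that mutant library 2 stands alone, col1a1b, col5a2a and col5a1 passed with differences of -0.83, -1.89 and -2.12 and col1a2 did not (-0.42). In that fit 39.5% of all tested genes passed as lower, and the lone mutant is assumed to vary like the wild type, so the 3 of 4 is no statement about these collagens. Without mutant library 2, 0 of 4 passed by limma, where 0.0149% of all tested genes did. Mutant library 1 then stands alone and is likewise assumed to vary like the wild type. The type I differences were then -0.56 for col1a2 and -0.71 for col1a1b, close to the values with both mutants.

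**Figure D2:**
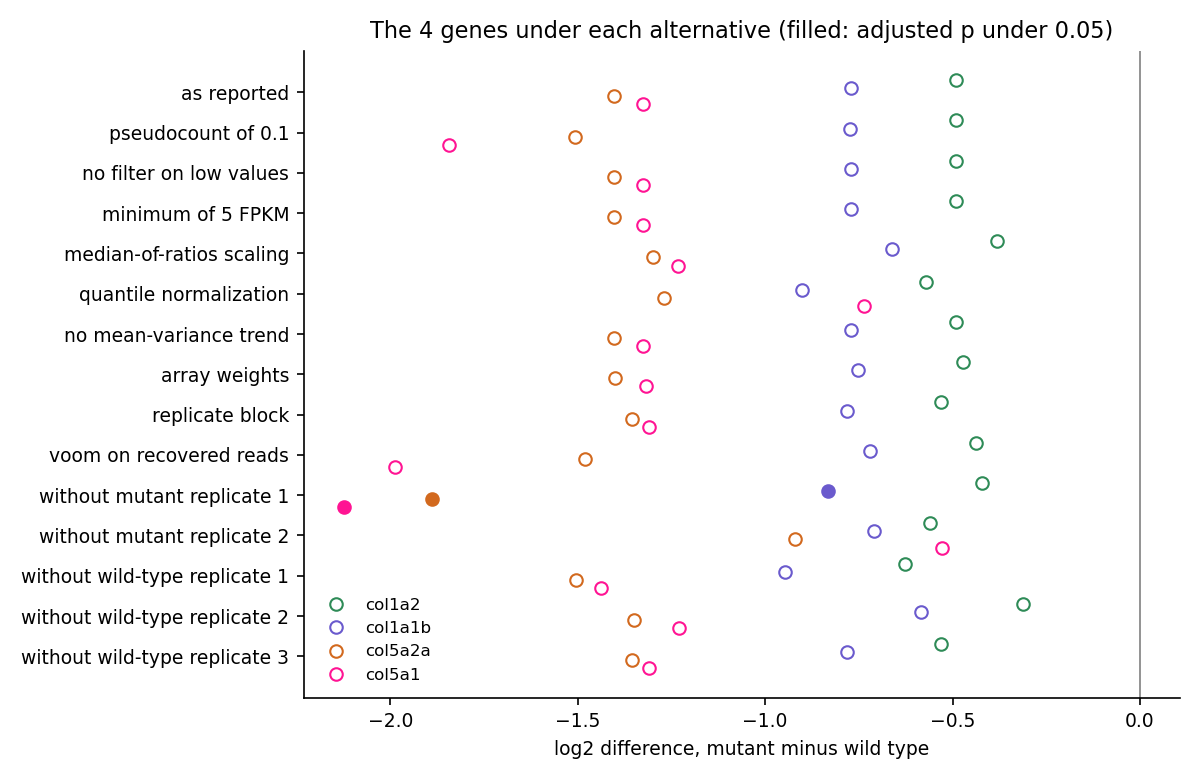
The log2 difference, mutant minus wild type (horizontal axis), of the 4 genes as reported and under each of 14 alternatives (rows), 1 colour per gene, filled where the adjusted p was under 0.05. Every point lies below 0, and the filled points stand in the row without mutant replicate 1, at -0.83, -1.89 and -2.12.

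Within each library the levels kept the same broad order, with the type I genes far above the type V genes. FPKM are per kilobase, so levels of different genes can be set side by side as far as the deposited gene lengths hold, which were 9258 bp for col1a2, 4584 bp for col1a1b, 2793 bp for col5a2a and 4503 bp for col5a1. Neither type I gene led in all libraries: col1a1b over col1a2 was 0.887 and 0.741 in mutant libraries, against 0.935, 0.998 and 1.03 in wild-type libraries. The mutant ratios lay below the wild-type range, and no test was made of them. By rank among all genes, col1a2 was 227th and 189th in mutant libraries and 176th, 102nd and 145th in wild-type libraries. col5a2a was 3945th and 6270th in mutant libraries, against 2839th, 2424th and 2456th in wild-type libraries.

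The balance of type V to type I members was lower in both mutants, though mutant library 1 sat at the edge of the wild-type range. Its order changed with the genes counted. Summed FPKM of col5a2a and col5a1 per 100 of summed col1a2 and col1a1b was 2.98 and 1.15 in mutant libraries 1 and 2, against 3.81, 3.05 and 3.94 in wild-type libraries. With genes described below added (ENSORLG00000000079 and ENSORLG00000025318 to type V, col1 to type I), it was 11.3 and 8.11 in mutant libraries, against 9.62, 8.32 and 8.16 in wild-type libraries, so mutant library 1 was the highest and mutant library 2 the lowest of the 5. That sum leaves out col11a2, a type XI chain by symbol that is also described as alpha-1(V). With col11a2 added to type V as well, both mutant libraries lay above all wild-type libraries. Between the type V chains, col5a2a over col5a1 was 2.96 and 8.52 in mutant libraries and 3.88, 3.48 and 3.92 in wild-type libraries. The mutants lay on either side of a narrow wild-type range. The 8.52 came from mutant library 2, the library that stood apart, and rests on 101 reads of col5a1. These ratios were formed after the values were seen and were not tested.

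**Figure D3:**
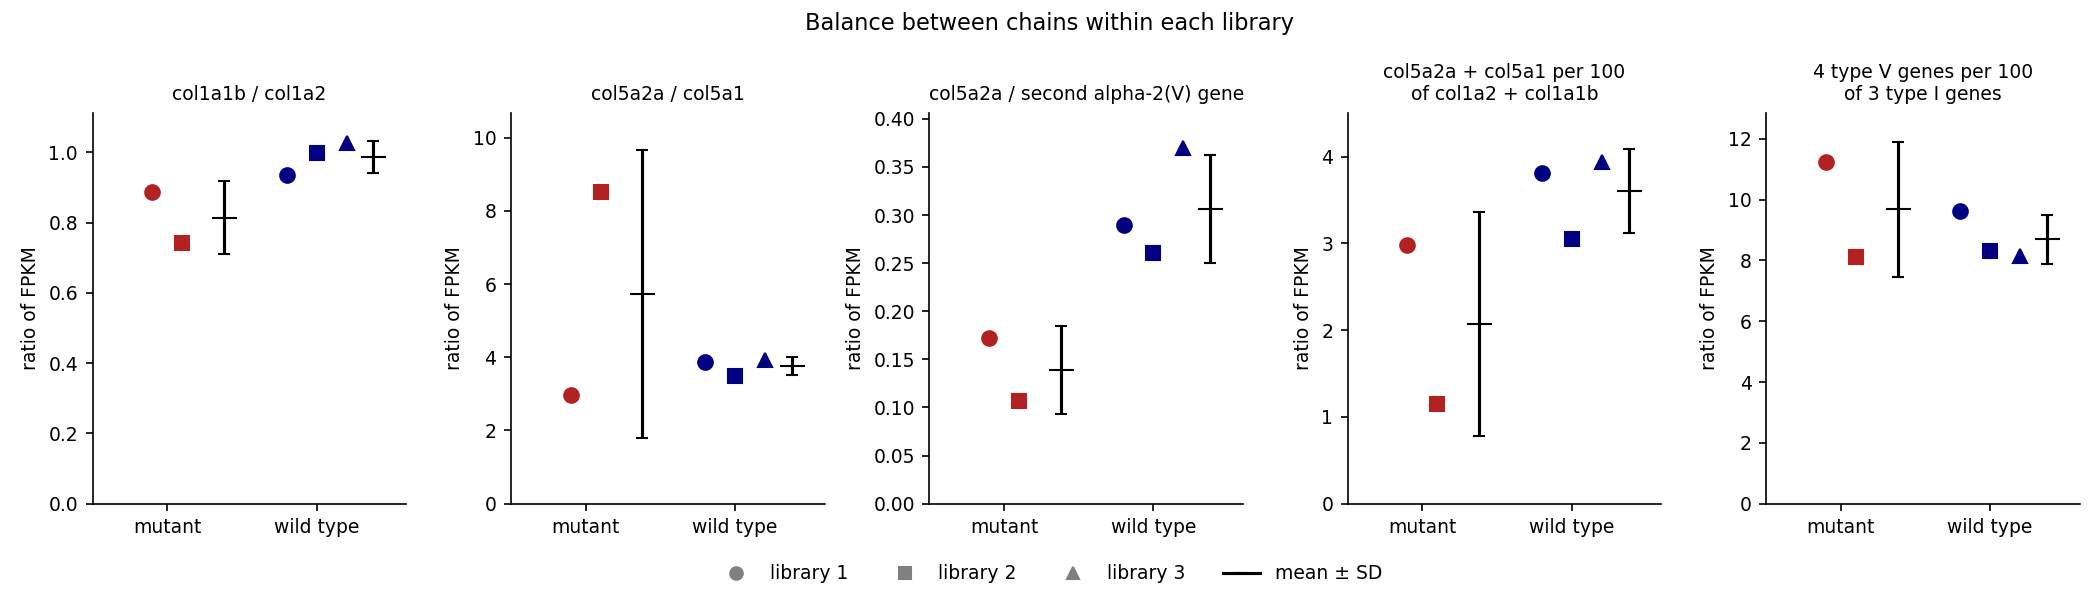
Ratios of FPKM (vertical axes, linear from 0) within each library for col1a1b over col1a2, col5a2a over col5a1, col5a2a over ENSORLG00000000079 (the other gene described as alpha-2(V)), the type V members per 100 of the type I members, and all 4 genes described as type V per 100 of all 3 described as type I (without col11a2), in 2 mutant libraries (red) and 3 wild-type libraries (dark blue), with the mean ± SD. Mutants lie on either side of the wild type for col5a2a over col5a1, at 2.96 and 8.52, and in the last panel, at 11.3 and 8.11, and below it in the other panels.

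The deposited table describes 4 further genes as type I or V chains under other names or none, and they were looked at after the members' values were seen. col1, on chromosome 8 from 23939364 to 23956880 on the minus strand, is described as an alpha-1 chain of type I and was the most abundant type I gene. It stood at 333 and 351 FPKM in mutant libraries, against 431, 655 and 505 FPKM in wild-type libraries, a difference of -0.61 (SE 0.24, limma adjusted p = 0.399). So all type I genes of the table that carry this description, members or not, had lower FPKM in both mutants, with estimates from -0.77 to -0.49. None passed (limma adjusted p = 0.399 each), and mutants lay below every wild-type library for 26.0% of all tested genes. As a share of recovered reads, col1a2 overlapped between the groups. Near-identical copies can share reads, and the sequences of col1 and col1a1b were not compared, so the split of reads between them was not checked.

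The other genes described as type V chains had estimates nearer to 0 or above it, and their difference from the members was not tested. ENSORLG00000000079, a second gene described as alpha-2(V), lies on chromosome 2 from 2299453 to 2312948 on the plus strand. It stood at 68.8 and 51.9 FPKM in mutant libraries, against 69.2, 96.2 and 67.5 FPKM in wild-type libraries, so the groups overlapped. Its difference was -0.35 (SE 0.26, 95% interval -0.97 to 0.26, limma adjusted p = 0.471), near the median of all tested genes. This copy was the more abundant alpha-2(V) gene in every library, and col5a2a relative to it was 0.172 and 0.107 in mutant libraries, against 0.290, 0.261 and 0.369 in wild-type libraries. That ratio did not overlap between the genotypes, and its difference was not tested.

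ENSORLG00000025318, described as alpha-1(V), is a short gene of 1029 bp on chromosome 12 from 5995211 to 6020588. It ends 3236 bp before col5a1 on the same strand, and the sources used here do not say whether both belong to 1 transcript. It stood at 12.5 and 14.1 FPKM in mutant libraries, against 10.8, 14.2 and 7.22 FPKM in wild-type libraries, a difference of 0.33 (SE 0.37, limma adjusted p = 0.623). Relative to col5a1 its level was 3.13 and 21.6 in mutant libraries, against 2.08, 1.96 and 1.14 in wild-type libraries. The neighbouring gene models thus gave opposite estimates, and the low value of col5a1 in mutant library 2 was not matched next to it. col11a2, a type XI chain by symbol that the table describes as alpha-1(V), stood at 40.7 and 54.7 FPKM in mutant libraries, against 32.8, 40.4 and 32.2 FPKM in wild-type libraries (difference 0.42, SE 0.26, limma adjusted p = 0.416). Without mutant library 2 the difference was -0.15 for ENSORLG00000000079 and 0.21 for col11a2, and without wild-type library 3 it was 0.09 for ENSORLG00000025318. Type V and XI chains are close relatives that can assemble together.

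**Figure D4:**
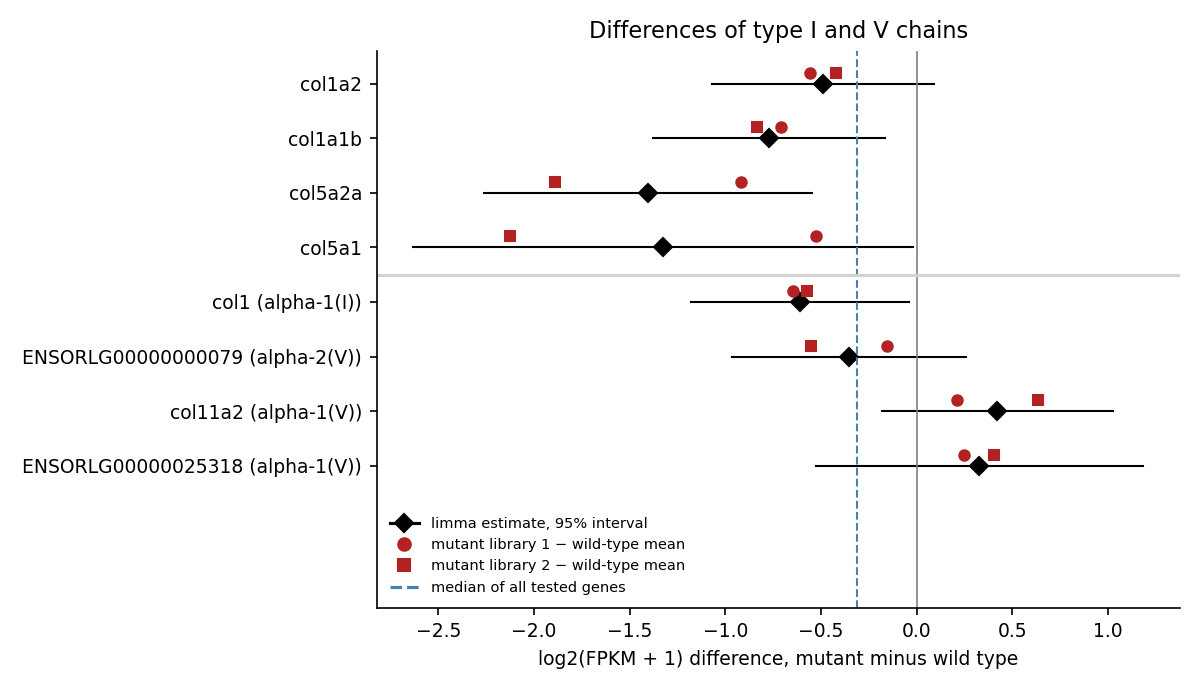
Differences on the log2(FPKM + 1) scale, mutant minus wild type (horizontal axis), for the 4 members (above the grey line) and the 4 other genes described as type I or V chains (below it), with limma's estimate and 95% interval in black, each mutant library against the wild-type mean in red, and the median of all tested genes, -0.31, dashed. The red points of col5a2a and col5a1 lie far apart (-0.92 and -1.89, -0.53 and -2.12), while those of col1a2, col1a1b and col1 lie close together.

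Genes whose pattern over the 5 libraries was most like that of a member were found by the root mean square difference of centred log2(FPKM + 1) among 10335 other tested genes with a symbol. Nearest to col5a2a were tpbgb, a trophoblast glycoprotein of the cell surface (0.03), kdf1b, described as keratinocyte differentiation factor 1 (0.08), and FGFRL1, which binds fibroblast growth factors without a kinase domain (0.08). tpbgb stood at 6.22 and 2.70 FPKM in mutant libraries, against 10.4, 13.6 and 13.9 FPKM in wild-type libraries. kdf1b was low, at 0.987 and 0.0449 FPKM in mutant libraries, against 2.11, 2.63 and 2.63 FPKM in wild-type libraries. At such levels adding 1 FPKM shrinks log2 differences, so its likeness to col5a2a depends on that scale. col5a1 was 150th in this order, col1a1b 2262nd and col1a2 4079th. Nearest to col1a2 were si:ch211-183d21.1, which has no description (0.03), tcf25, a transcription factor (0.04), and krit1, a junction protein of vessels in mammals (0.05), and col1a1b was 217th. The type I and type V members therefore did not form the closest group around each other over these libraries.

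Fibril formation needs more than the chains: they are hydroxylated and folded in the endoplasmic reticulum, carried out in large vesicles, trimmed by proteases, crosslinked and coated by small proteoglycans. Of 88 genes on 7 lists for these steps 81 were tested, 61 had a lower and 20 a higher estimate in the mutants, and 0 passed by limma or by voom. A lower estimate held for 65.9% of all tested genes, the share to set beside the count of each list below. At an unadjusted p under 0.05 by limma, 19 were lower and 3 higher, where 7.60% and 3.21% of all tested genes were. Their median difference was -0.46, beside -1.05 for the 4 chains and -0.31 for all tested genes. Mutants lay below all wild-type libraries for 34 of the 81 and above them for 8, where the background was 26.0% and 8.33%.

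Of 18 folding and modification enzymes tested, 10 had a lower and 8 a higher estimate, with a median of -0.05. Set against the wild-type mean singly, the median was -0.25 for mutant library 1 and 0.07 for mutant library 2. p4ha1b, a subunit of the prolyl hydroxylase that stabilises the triple helix, stood at 51.3 and 65.2 FPKM in mutant libraries, against 24.8, 35.3 and 31.1 FPKM in wild-type libraries (difference 0.92, SE 0.26). ppib, a prolyl isomerase of collagen folding, stood at 275 and 335 FPKM in mutant libraries, against 196, 186 and 173 FPKM in wild-type libraries (difference 0.71, SE 0.21). For both enzymes, picked by smallest p, the mutant libraries stood above all wild-type libraries, the reverse of the order of the chains they act on. That order held for 5 of the 18, and 4 lay below all wild-type libraries, where 8.33% and 26.0% of all tested genes did. colgalt2, which adds galactose to collagen, was at 0.856 FPKM in mutant library 1 and had no read in mutant library 2, against 1.82, 2.99 and 3.14 FPKM in wild-type libraries. limma's adjusted p was 0.399 for each of these enzymes.

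Procollagen export, with 7 genes tested, had 3 higher and 4 lower estimates and a median of -0.12 (-0.33 for mutant library 1 and -0.09 for mutant library 2). creb3l2, a transcription factor that in zebrafish drives secretory genes of cartilage cells, differed by -1.01 (SE 0.45), trappc2, a tethering factor needed for procollagen export in human cells, by 0.90 (SE 0.45), and KLHL12, which enlarges coated vesicles in mammalian cells, by -0.42 (SE 0.36). creb3l2 stood at 7.65 and 2.93 FPKM in mutant libraries, against 8.58, 12.5 and 11.5 FPKM in wild-type libraries, and differed by -0.44 without mutant library 2. The difference of trappc2 was 0.25 without mutant library 2, which stood at 24.9 FPKM beside 9.53 FPKM in mutant library 1, against 9.59, 7.51 and 6.66 FPKM in wild-type libraries.

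Propeptide cleavage and crosslinking had 13 lower and 2 higher estimates of 15 tested, with a median of -0.80. The median was -0.38 for mutant library 1 and -1.28 for mutant library 2, so it rested largely on the library that stood apart. pcolce2b, an enhancer of the protease that cuts the C-propeptide, stood at 21.2 and 1.14 FPKM in mutant libraries, against 29.3, 35.9 and 25.1 FPKM in wild-type libraries. Its difference was -2.16 (SE 0.85) with both mutants and -0.47 without mutant library 2. The lysyl oxidase relative loxl2a stood at 6.56 and 0.984 FPKM in mutant libraries, against 12.4, 10.6 and 10.5 FPKM in wild-type libraries (difference -1.65, SE 0.58, and -0.68 without mutant library 2). adamts14, an N-propeptidase, differed by -1.35 (SE 0.50) and by -0.77 without mutant library 2. In each of these 3 genes mutant library 2 was the lower mutant, as for col5a2a and col5a1.

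Fibril-associated proteins had 21 lower and 3 higher estimates of 24 tested, with a median of -0.54 (-0.54 for mutant library 1 and -0.69 for mutant library 2). aspn, asporin, a small proteoglycan that binds type I fibrils, stood at 57.5 and 44.4 FPKM in mutant libraries, against 96.2, 130 and 96.9 FPKM in wild-type libraries (difference -1.06, SE 0.25). fmoda, fibromodulin, stood at 20.9 and 9.67 FPKM in mutant libraries, against 27.5, 36.7 and 41.7 FPKM in wild-type libraries (difference -1.23, SE 0.37, and -0.71 without mutant library 2). postn, periostin (ENSORLG00000003583), stood at 11.1 and 13.8 FPKM in mutant libraries, against 21.0, 35.6 and 29.4 FPKM in wild-type libraries (difference -1.12, SE 0.32). None passed (limma adjusted p = 0.399 each), and in all 3, which were picked by smallest p, the genotypes did not overlap. Mutants lay below all wild-type libraries for 14 of the 24 and above them for 1, where 26.0% and 8.33% of all tested genes did.

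Receptors and degradation genes were fewer. Of 6 collagen receptor genes tested 5 had a lower estimate (median -0.62, with -0.33 for mutant library 1 and -0.89 for mutant library 2), with ddr2b and ddr2a, kinases that bind fibrillar collagen, at -0.88 (SE 0.34) and -0.69 (SE 0.37), and itga11a, an integrin chain, at -1.14 (SE 0.48). itga11a had no read in mutant library 2, and without that library the difference was -0.55 for itga11a and -0.28 for ddr2a. Of 7 degradation genes 5 had a lower estimate (median -0.46, with -0.12 for mutant library 1 and -0.74 for mutant library 2), among them the gelatinase mmp2 at -0.79 (SE 0.31) and the membrane protease mmp14a at -1.71 (SE 0.83), which was -0.12 without mutant library 2. mmp13b, a collagenase that cuts type I and II fibrils, had a higher estimate, at 12.3 and 26.9 FPKM in mutant libraries, against 0.490, 1.37 and 5.58 FPKM in wild-type libraries (difference 2.75, SE 0.69, limma adjusted p = 0.399).

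Among other fibrillar collagens, the genes named col2a1a, the cartilage type II chain, were lower in both mutants. Neither passed (limma adjusted p = 0.399 each), and mutants lay below all wild-type libraries for 26.0% of all tested genes. The copy ENSORLG00000012738 stood at 4.33 and 9.38 FPKM in mutant libraries, against 11.1, 18.0 and 17.0 FPKM in wild-type libraries (difference -1.11, SE 0.41, and -0.63 without mutant library 1). The copy ENSORLG00000005102 stood at 2.49 and 2.25 FPKM in mutant libraries, against 6.27, 6.54 and 6.93 FPKM in wild-type libraries (difference -1.17, SE 0.39). col11a1a stood at 3.44 and 6.15 FPKM in mutant libraries, against 4.89, 6.27 and 4.65 FPKM in wild-type libraries, so its genotypes overlapped. With col11a2 higher, the 4 tested genes of this list had a median of -0.63 (-0.80 for mutant library 1 and -0.22 for mutant library 2).

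**Figure D5:**
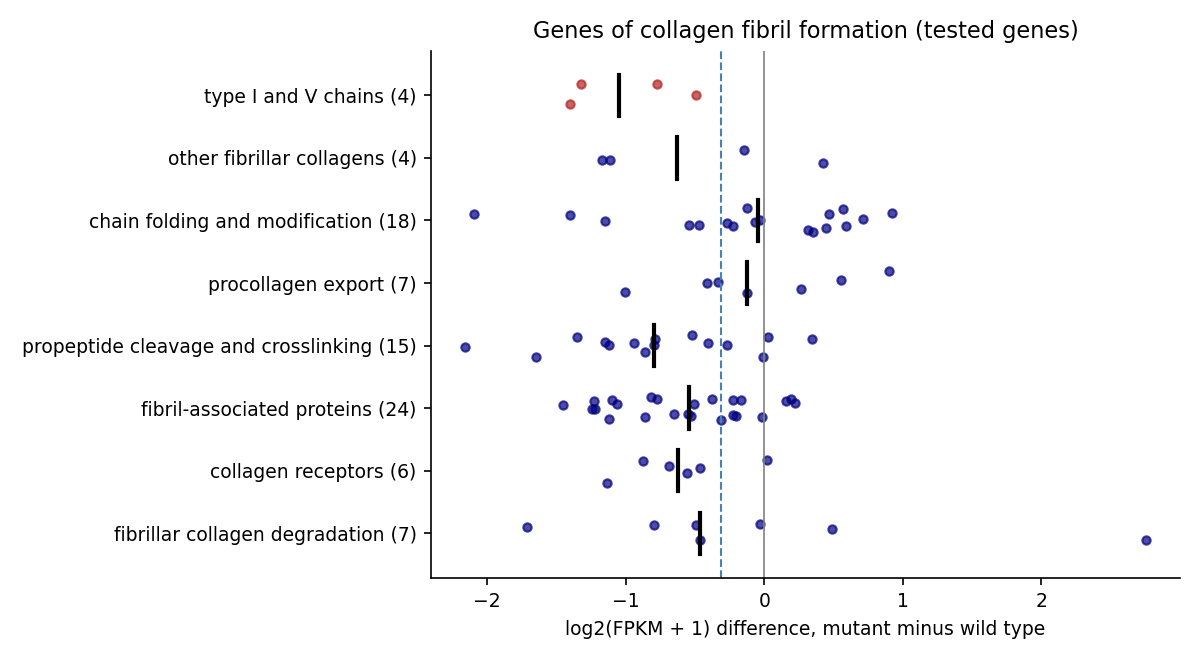
Differences on the log2(FPKM + 1) scale, mutant minus wild type (horizontal axis), of the 4 type I and V chains (red) and of the tested genes of 7 lists of fibril formation (dark blue, number in brackets), with each list's median as a black bar, 0 in grey and the median of all tested genes, -0.31, dashed. Folding and modification genes spread to both sides of 0 (median -0.05), and cleavage and crosslinking genes lie mainly below it (median -0.80). The medians of these lists were -0.25 and -0.38 for mutant library 1, and 0.07 and -1.28 for mutant library 2.

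Beside the lower collagen values stood the chondrocyte markers given above, with a median difference of -1.16 over the 12 tested, and tnmd, a tendon marker, at 6.73 and 6.04 FPKM in mutant libraries, against 13.0, 15.9 and 13.5 FPKM in wild-type libraries. tnmd did not pass (limma adjusted p = 0.399) and had the smallest unadjusted p of the 6 tested genes of its list, fibroblast and tendon markers. Of those 6, 4 had a lower and 2 a higher estimate, with a median difference of -0.07. The list as a whole summed to 192 and 201 FPKM in mutant libraries, against 216, 220 and 232 FPKM in wild-type libraries. scxa, its defining transcription factor, overlapped between genotypes. Osteoblast markers summed to 7830 and 7868 FPKM in mutant libraries, against 6349, 7299 and 7150 FPKM in wild-type libraries, with a median of -0.12 over 10 tested. Most of that sum was phospho1, at 6084 and 6243 FPKM in mutant libraries, against 4894, 5251 and 5369 FPKM in wild-type libraries, while 6 of the 10 had a lower estimate. Muscle markers summed to 804 and 537 FPKM in mutant libraries, against 968, 827 and 704 FPKM in wild-type libraries, and keratinocyte markers summed to 888 and 341 FPKM in mutant libraries, against 1191, 1146 and 376 FPKM in wild-type libraries. The part of such markers in the collagen values was not tested.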

How the data were processed

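The authors deposited FPKM per gene and library for 5 libraries, with a gene length and coordinates, per the file headers. The aligner HISAT2 2.0.5 and the counter featureCounts 1.5.0-p3 are named, per the submitters' processing notes. No source used here gives the genome build, annotation or strandedness, so reads of overlapping genes could not be told apart. The only gene overlapping a member (col1a2) had no read.

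FPKM times gene length came in whole steps (100% of values above 0 within 0.02 reads), which gave read numbers. log2(FPKM + 1) was tested with limma 3.58.1 in R 4.3.3 (mean-variance trend, Benjamini-Hochberg adjustment, threshold 0.05) on genes that reached 1 FPKM in 2 or more libraries, which all 4 members passed. Single genes were also compared by exact permutation of the absolute difference in means (scipy 1.17.1, python 3.11.15). The fit was tested on simulated data that held no sparse library like mutant library 2, so that test does not cover its effect. Members and lists were chosen with earlier results of these data known. In each of the 7 fibril lists up to 3 genes with the smallest p were named, and col11a1a was named as the remaining gene of its list. Marker genes were named after their values were seen. List entries matched symbols with or without a final a or b. No sequence is shown. Alternatives were 9 settings and leaving out each of 5 libraries.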

Additional observations from a re-analysis of the deposited data

How the results depend on the processing

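The 4 collagen genes kept a negative difference under all 14 alternatives, from -0.63 to -0.31 for col1a2, -0.95 to -0.58 for col1a1b, -1.89 to -0.92 for col5a2a and -2.12 to -0.53 for col5a1. Leaving out 1 library gave 1 to 7239 genes called of all tested, 0 to 3 of the 4 collagen genes and 0 to 39 genes of the fibril lists, with the highest counts in the fit without mutant library 1. Over all 5 fits that left out a library the difference of col10a1b ran from -0.68 to 0.26, turning positive without mutant library 1 (0.26) and without wild-type library 2 (0.01). Correlations of deviations from the group means were 0.06 and -0.01 between same-numbered libraries. With 2 mutant libraries these deviations mirror each other, so the check cannot show or exclude a pairing. The numbers were not taken as a pairing. With the replicate number as a block 145 of 13680 tested genes were called. The fibril lists held 2 of these among 81 tested (pcolce2b lower and mmp13b higher), and the 4 collagen genes held 0. Quantile normalization moved the median of all tested genes to 0.01, and col5a1 then differed by -0.74, against -1.84 with a pseudocount of 0.1 and -1.99 with voom. At 0.652 FPKM in mutant library 2, adding 1 rather than 0.1 FPKM shrinks the log2 difference of col5a1, so its size depends on that scale. The cause of the quantile and voom values was not tested. Depth limits col5a1 most, with 101 reads in mutant library 2.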
